A study of Danio rerio with 12 samples.

Results

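The genes described here are those of haem synthesis and of the erythrocyte in zebrafish larvae exposed to tributyltin chloride (TBT), an organotin biocide that binds the retinoid X receptors. Members were chosen by name, with earlier results of these data known. They are alas2, alas1, alad, uros, urod, cpox, ppox and fech, which encode enzymes of the haem pathway, slc4a1a, which encodes the band 3 anion exchanger of the erythrocyte membrane, and tfr1a, which encodes a transferrin receptor. All 10 were present among the 26816 genes of the table, each under a single gene ID, and all 10 passed the filter on low values. RNA was sequenced from wild-type eleutheroembryos, hatched larvae that still live on yolk, taken at 5 days post fertilization (dpf) as whole animals. Larvae had been held from 2 to 5 dpf in water containing TBT at 3, 30 or 100 nM, or no TBT (control), and every group, the control included, received 0.2% dimethyl sulfoxide as the solvent. Each group had 3 libraries, and each library was a pool of 10 larvae. The labels do not state whether pools within a group stem from different clutches or tanks; p-values therefore measure only the spread between pools, which may be technical.

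Haem is made partly in mitochondria and partly in the cytosol. The pathway opens with 5-aminolevulinate synthase, which joins glycine to succinyl-CoA. Vertebrates have a form of that enzyme used in all tissues (ALAS1), whose gene is repressed by haem and is most active in liver, and a form used in erythroid cells (ALAS2). The later enzymes are shared by all tissues, and ferrochelatase closes the pathway by inserting iron into protoporphyrin. In zebrafish several of these genes are known from anaemic or porphyric mutants: sauternes carries a lesion in alas2, yquem in urod, montalcino in ppox, dracula in fech, retsina in slc4a1a and chianti in tfr1a.

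The values were normalised counts, with totals per library between 26515823 and 35772586. A gene was called changed when the adjusted p of limma's test, corrected by the Benjamini-Hochberg method over all 22404 genes tested, was under 0.05. Fold changes are on the scale of log2(normalised count + 1), with their standard errors (SE). At 100 nM against the control, 17.5% of all genes tested were called, 9.63% higher and 7.9% lower. The libraries' scaling bears on that split: with all libraries scaled to the same total, 1127 genes were higher and 2865 lower, where the deposited scaling gave 2157 higher and 1769 lower. On that scale the all-gene median of the log2 fold change was −0.20, against −0.02 as deposited.

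At 100 nM TBT both 5-aminolevulinate synthase genes and the band 3 gene rose. A late enzyme gene, ppox, fell at the edge of the threshold (limma adjusted p = 0.0485) and kept its call in 1 of 12 omissions of a library. The other 6 of the 10 genes were not called. Of the 10 genes, 3 rose (alas1, alas2 and slc4a1a) and 1 fell (ppox), which is set against 17.5% called among all genes. Since the 10 were chosen with earlier results of these data known, such shares, here and below, are descriptions and no independent evidence. At an unadjusted p under 0.05 there were 6 of the 10, where 31.3% of all genes were. All libraries at 100 nM lay above those of the control for 5 of the 10 (14.5% of all genes) and below them for 1 (12.9%). The median log2 fold change of the 10 was 0.30. The 6 genes that were not called had log2 fold changes between −0.14 (alad) and 0.44 (urod). At 30 nM and at 3 nM none of the 10 was called by limma.

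**Figure D1:**
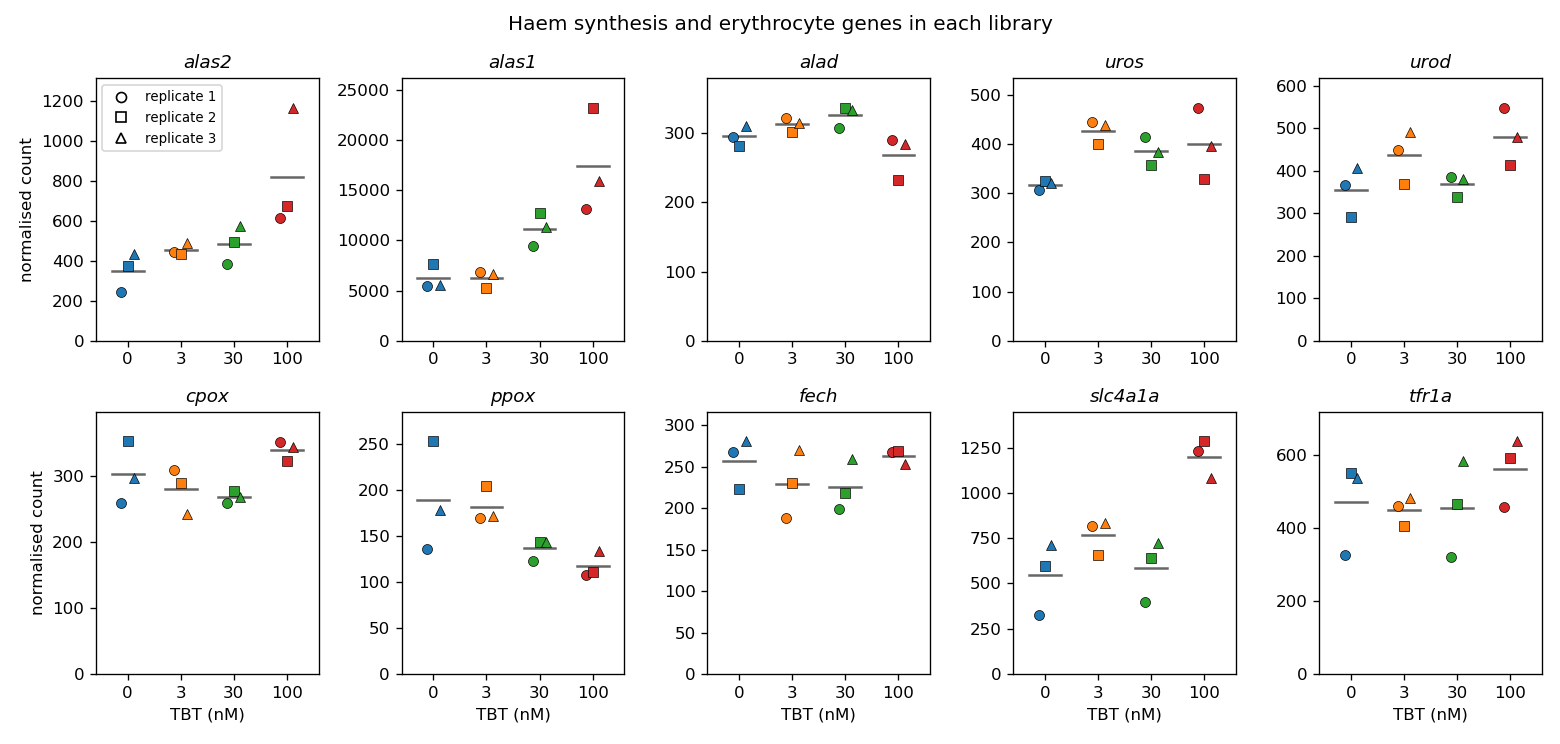
Normalised counts of the 10 genes (vertical axes, from 0) in each library at 0 (control), 3, 30 and 100 nM TBT. Symbols mark the replicate number and grey lines the group mean of 3 libraries. The 3 libraries at 100 nM lie above all control libraries for alas2, alas1, uros, urod and slc4a1a, and below them for ppox.

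alas1 encodes the synthase used in all tissues. Its normalised counts were 5438, 7639 and 5572 in the control, 6803, 5229 and 6641 at 3 nM, 9398, 12765 and 11303 at 30 nM, and 13146, 23227 and 15867 at 100 nM. The control and 3 nM libraries overlapped, the 30 nM libraries all lay above both, and the 100 nM libraries all lay above those at 30 nM. alas1 averaged 17413 ± 5215 at 100 nM and 6216 ± 1234 in the control (SD, n = 3 each), a log2 fold change of 1.46 ± 0.22 SE (limma adjusted p = 0.00109). That call held without each of the 12 libraries in turn, with log2 fold changes of 1.23 to 1.64. At 30 nM the gene averaged 11155 ± 1688, with a log2 fold change of 0.85 ± 0.22 SE against the control that did not pass (limma adjusted p = 0.152). At 3 nM the mean was 6224 ± 866 and the log2 fold change 0.01, with a 95% interval of −0.47 to 0.49. The step between 100 and 30 nM was 0.61 ± 0.22 SE and did not pass either (limma adjusted p = 0.11). In order of level, the control and 3 nM did not differ beyond their spread. Over the 4 groups together alas1 passed the joint test, a moderated F-test in limma (adjusted p = 0.00231). By that test 12.9% of all genes were called.

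alas2 encodes the erythroid synthase. Its normalised counts were 246, 372 and 434 in the control, 446, 432 and 489 at 3 nM, 383, 493 and 572 at 30 nM, and 616, 673 and 1167 at 100 nM. All libraries at 100 nM lay above every other library, whereas the 3 lower groups overlapped each other. The highest value at 100 nM, that of replicate 3, was well above the other two. alas2 averaged 819 ± 303 at 100 nM and 351 ± 95.8 in the control (SD, n = 3 each), a log2 fold change of 1.2 ± 0.26 SE (limma adjusted p = 0.00922). Without 100 nM replicate 3 or any other library the call was kept, and the log2 fold change lay between 0.91 and 1.37. With only the 100 nM and control libraries in the fit it did not pass (limma adjusted p = 0.0739). The group means were 456 ± 29.7 at 3 nM and 483 ± 94.9 at 30 nM, with log2 fold changes against the control of 0.41 (limma adjusted p = 0.539) and 0.48 (limma adjusted p = 0.597). The difference between 100 and 30 nM was 0.72 ± 0.26 SE (limma adjusted p = 0.118). The joint test over the 4 groups passed narrowly (limma adjusted p = 0.0445), and it no longer did when any single library was left out (0.0501 to 0.124).

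slc4a1a encodes band 3, which exchanges chloride for bicarbonate and anchors the membrane skeleton of erythrocytes. Its normalised counts were 328, 598 and 714 in the control, 815, 656 and 832 at 3 nM, 397, 641 and 723 at 30 nM, and 1232, 1287 and 1081 at 100 nM. The 100 nM libraries all lay above every other library. The control averaged 547 ± 198, the 3 nM group 768 ± 97.1, the 30 nM group 587 ± 170 and the 100 nM group 1200 ± 107 (SD, n = 3 each). The order of the levels was thus not that of the concentrations, 3 nM standing above 30 nM, but the groups below 100 nM overlapped. At 100 nM the log2 fold change was 1.2 ± 0.28 SE (limma adjusted p = 0.0128), and the call held without each library in turn (0.87 to 1.43), but not with only the 100 nM and control libraries in the fit (limma adjusted p = 0.0598). Against the control, slc4a1a had log2 fold changes of 0.13 at 30 nM (limma adjusted p = 0.92) and 0.55 at 3 nM (limma adjusted p = 0.484).

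The comparison of 100 with 30 nM called slc4a1a alone among the 10 genes, at 1.07 ± 0.28 SE (limma adjusted p = 0.0343), where 9.23% of all genes were called (5.29% higher, 3.95% lower). At an unadjusted p under 0.05 there were 6 of the 10, against 22.6% of all genes. The 100 nM libraries lay wholly above those at 30 nM for 5 of the 10 (14% of all genes) and wholly below them for 1, alad (13%). The slc4a1a call ended without 7 of the 12 libraries in turn, which were 3 nM replicates 1 and 3 (adjusted p = 0.0529 and 0.0528), 30 nM replicates 1 and 2 (0.124 and 0.0694) and 100 nM replicates 1, 2 and 3 (0.0929, 0.08 and 0.0661). It also ended with libraries scaled to equal totals (0.0905). The joint test over the 4 groups gave slc4a1a an adjusted p of 0.0411, with 0.0198 to 0.125 over the libraries left out in turn and 7 of the 12 above the threshold. Those 7 were all 3 replicates at 3 nM (0.0716, 0.0584 and 0.072), 30 nM replicate 2 (0.0621) and all 3 replicates at 100 nM (0.125, 0.105 and 0.099).

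ppox encodes protoporphyrinogen oxidase, the enzyme just before ferrochelatase. Its normalised counts were 136, 253 and 178 in the control, 169, 204 and 171 at 3 nM, 123, 143 and 143 at 30 nM, and 107, 111 and 133 at 100 nM. All libraries at 100 nM lay below the control, though 100 nM replicate 3 was within 3 counts of control replicate 1. ppox averaged 117 ± 14 at 100 nM and 189 ± 59.3 in the control (SD, n = 3 each), a log2 fold change of −0.65 ± 0.20 SE (limma adjusted p = 0.0485). The call stood at the edge of the threshold and ended without 11 of the 12 libraries in turn, with adjusted p up to 0.14. Only without control replicate 1, the lowest of the control, was it kept (0.00905, log2 fold change −0.86), whereas without control replicate 2, the highest, the value was −0.41 (0.132). At 30 nM the mean was 136 ± 11.5 and the log2 fold change −0.43 ± 0.20 SE (limma adjusted p = 0.542), and at 3 nM the mean was 181 ± 19.7 and the log2 fold change −0.02 (limma adjusted p = 0.978).

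**Figure D2:**
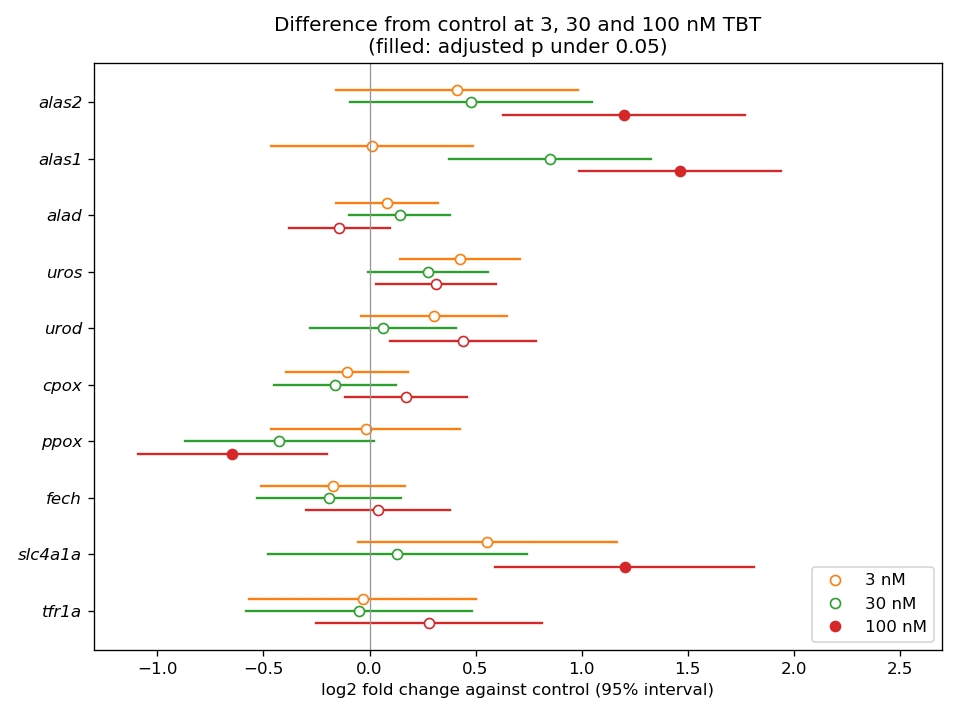
Log2 fold change of each gene against the control (horizontal axis) at 3, 30 and 100 nM TBT, with 95% intervals from the limma fit of all 12 libraries; filled points passed an adjusted p of 0.05. At 100 nM alas2, alas1 and slc4a1a were higher (1.2, 1.46 and 1.2) and ppox lower (−0.65), and no point at 3 or 30 nM is filled.

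Among the 10 genes, the 3 that encode enzymes of cytosolic steps, alad, uros and urod, were not called. alad, whose enzyme condenses 5-aminolevulinate to porphobilinogen, had 294, 282 and 311 normalised counts in the control, 322, 302 and 315 at 3 nM, 308, 337 and 334 at 30 nM, and 290, 232 and 285 at 100 nM. Its log2 fold change at 100 nM was −0.14, with a 95% interval of −0.38 to 0.10. Against 30 nM, the 100 nM libraries all lay below, by −0.28 ± 0.11 SE, without passing the test (limma adjusted p = 0.141). uros, whose enzyme closes the tetrapyrrole ring, was tight in the control at 307, 324 and 321, and stood at 444, 399 and 438 at 3 nM, 414, 357 and 384 at 30 nM, and 474, 329 and 395 at 100 nM. In every exposed group all uros libraries lay above the control, yet no comparison passed, with log2 fold changes of 0.43 at 3 nM (limma adjusted p = 0.375), 0.28 at 30 nM (0.529) and 0.32 at 100 nM (0.119). All 3 of these comparisons share the same control libraries. urod, whose enzyme decarboxylates uroporphyrinogen, had 366, 291 and 407 in the control, 450, 370 and 491 at 3 nM, 385, 339 and 380 at 30 nM, and 549, 414 and 479 at 100 nM. Its log2 fold change at 100 nM was 0.44 ± 0.16 SE (limma adjusted p = 0.0755). uros and urod were called at 100 nM when 100 nM replicate 2, the lowest library of that group for both genes, was left out (limma adjusted p = 0.0228 and 0.0413).

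Nor were cpox, fech or tfr1a called. cpox, which encodes coproporphyrinogen oxidase, had 259, 353 and 296 normalised counts in the control, 309, 289 and 243 at 3 nM, 259, 277 and 268 at 30 nM, and 351, 322 and 343 at 100 nM. Its log2 fold change at 100 nM was 0.17, with a 95% interval of −0.12 to 0.46, and it was negative with equal totals (−0.02). fech, which encodes ferrochelatase, ranged from 188 to 281 over all 12 libraries and averaged 263 ± 8.72 at 100 nM and 257 ± 30.3 in the control (SD, n = 3 each). The 95% interval of its log2 fold change at 100 nM was −0.30 to 0.38 around a value of 0.04, and equal totals gave −0.15. tfr1a, the receptor gene through which erythroid precursors take up transferrin-bound iron, had 328, 552 and 537 in the control, 462, 406 and 484 at 3 nM, 321, 466 and 584 at 30 nM, and 458, 593 and 640 at 100 nM. Its groups overlapped at every concentration, and at 100 nM the log2 fold change was 0.28, with an interval of −0.25 to 0.81.

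At the lower concentrations, the count of the 10 genes called by limma was 0 at 30 nM, where 0.531% of all genes were called (0.379% higher, 0.152% lower), and 0 at 3 nM, where 0.0402% were (0.00446% higher, 0.0357% lower). By limma's unadjusted p under 0.05 there was 1 gene at 30 nM, alas1, and 1 at 3 nM, uros. Among all genes tested, 9.68% reached that level at 30 nM and 10.6% at 3 nM. At 30 nM the libraries of 2 genes, alas1 and uros, lay wholly above the control (6.98% of all genes) and those of 0 wholly below it (7.28%). At 3 nM that held for 1 gene above, uros (8.23%), and 0 below (7.62%). At 30 nM, 6 of the 10 genes had a positive and 4 a negative log2 fold change, between −0.43 (ppox) and 0.85 (alas1). At 3 nM the numbers were again 6 and 4, between −0.17 (fech) and 0.55 (slc4a1a).

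With equal totals per library, alas1, alas2, slc4a1a and ppox were each called at 100 nM. Their log2 fold changes under that scaling were 1.27, 1.01, 1.01 and −0.83 (limma adjusted p = 0.00778, 0.0388, 0.0453 and 0.0436). Relative to the median of all genes they were 1.48, 1.22, 1.22 and −0.63. Such scaling shifts all genes of a library nearly alike. Values relative to the median therefore stay nearly as deposited by construction and are no separate evidence. In bulk RNA from whole larvae, a change in the number of erythroid cells and a change in RNA per cell cannot be told apart.

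Within groups, some of the 10 genes deviated together. In control replicate 1 and 30 nM replicate 1, alas2, slc4a1a and tfr1a were all the lowest of their group. The same held for alas1, cpox and ppox in both libraries. Deviations from the group mean of log2 values over the 12 libraries correlated at r = 0.85 between slc4a1a and tfr1a, 0.83 between alas2 and tfr1a and 0.59 between alas2 and slc4a1a. Between alas1 and alas2 the correlation was 0.19, and between alas1 and urod −0.54. Other pairs reached similar values, such as cpox and ppox (0.73), ppox and tfr1a (0.65), uros and urod (0.64) and alas1 and tfr1a (0.57). The pair of cpox and fech stood at −0.66. These are descriptions over libraries that share a scaling factor each. By replicate number, replicate 3 was the highest for alas2 in all 4 groups, replicate 1 the lowest for ppox in all 4, and replicate 2 the lowest for urod in all 4. These cases were picked after every replicate number of the 10 genes was looked at, and no other gene had such a case. The share of all genes with such a case was not computed. Whether equal numbers mark shared clutches or days is not stated in the labels.

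**Figure D3:**
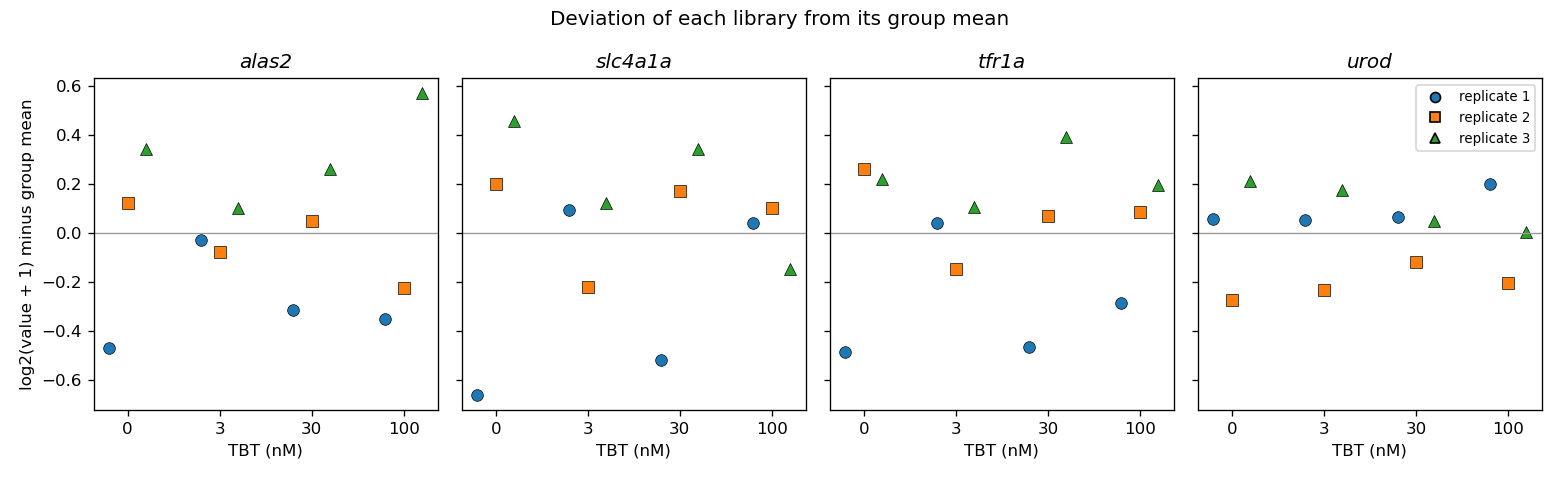
Difference of log2(normalised count + 1) from the group mean (vertical axis) for each library at 0 (control), 3, 30 and 100 nM TBT, for alas2, slc4a1a, tfr1a and urod; colours and symbols mark the replicate number. Replicate 1 of the control and of 30 nM lies lowest for alas2, slc4a1a and tfr1a, and replicate 2 lies lowest for urod in all 4 groups.

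Other genes of haem synthesis and transport were looked at as a list. This list and those that follow were written with earlier results of these data known. Their shares beside all genes are therefore descriptions and no independent evidence. The 27 tested gene IDs covered the remaining enzymes, mitochondrial carriers and regulators of the pathway. They also held genes of haem transport or binding, such as flvcr1, slc48a1a and hebp2, and the glycine transporter gene slc6a9. Of the 27, 9 rose and 0 fell at 100 nM, where 9.63% of all genes rose and 7.9% fell. The list's median log2 fold change was 0.43 (−0.02 for all genes). None was called at 30 or 3 nM. slc25a38a, a carrier gene known for bringing glycine into mitochondria for 5-aminolevulinate synthesis, had 133, 270 and 166 normalised counts at 100 nM, against 43, 77 and 44 in the control. No library of the 2 groups overlapped, and the log2 fold change was 1.77 ± 0.28 SE (limma adjusted p = 0.00156). Its paralogue slc25a38b had 778, 722 and 682 at 100 nM, against 485, 537 and 486 in the control (0.53 ± 0.10 SE, limma adjusted p = 0.00348). clpxb, a gene of the mitochondrial unfoldase ClpX, which in yeast and mammals acts on 5-aminolevulinate synthase, averaged 2012 ± 339 at 100 nM and 1094 ± 62.4 in the control (SD, n = 3 each), a log2 fold change of 0.87 (limma adjusted p = 0.000834). clpxa occurs under 2 gene IDs, both of which rose, by 0.52 and 0.54.

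tspo, which encodes an outer-membrane protein that binds porphyrins, averaged 3300 ± 596 at 100 nM and 1536 ± 288 in the control (SD, n = 3 each; log2 fold change 1.1, limma adjusted p = 0.00092). iscub, the gene of a scaffold on which iron-sulphur clusters are built, averaged 479 ± 86.3 at 100 nM and 224 ± 30.6 in the control (SD, n = 3 each; 1.08, limma adjusted p = 0.00159). The enzyme between alad and uros, hydroxymethylbilane synthase, has 2 genes that are not among the 10 and were picked after their values were seen. hmbsa had 562, 413 and 564 at 100 nM, against 378, 299 and 326 in the control (0.61 ± 0.16 SE, limma adjusted p = 0.0205), and hmbsb had 371, 303 and 342 at 100 nM, against 202, 252 and 282 in the control (0.47 ± 0.16 SE, limma adjusted p = 0.0605). With equal totals 5 of the 27 genes rose, and slc25a38b (adjusted p = 0.0888) and the clpxa copy of higher significance (0.13) were no longer called.

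**Figure D4:**
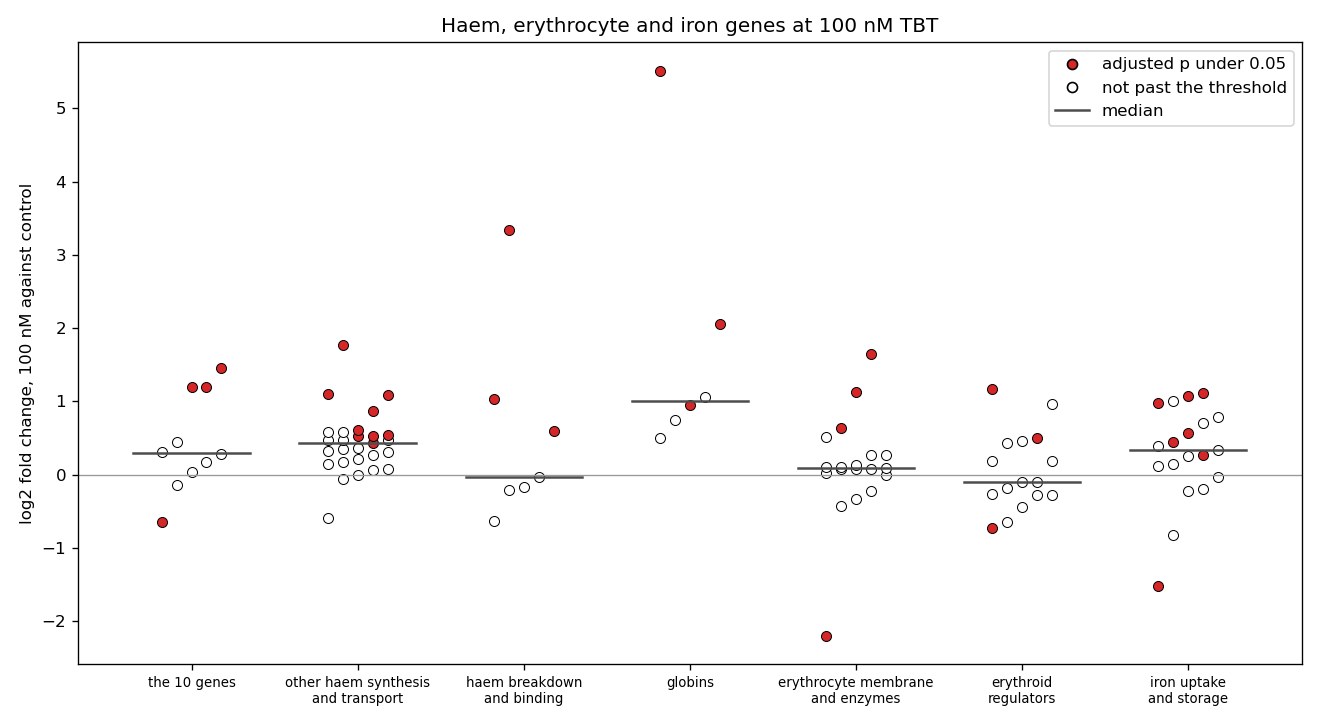
Log2 fold change at 100 nM against the control (vertical axis) for the 10 genes and for 6 lists of related genes; red points passed an adjusted p of 0.05 and lines are list medians. The other haem synthesis and transport genes have a median of 0.43 and the globins of 1.0, while the erythrocyte membrane genes and erythroid regulators have medians of 0.09 and −0.10.

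Genes for binding and breaking down finished haem gave mixed values. Of 7 tested, 3 rose and 0 fell at 100 nM (9.63% and 7.9% of all genes), and the list's median was −0.03. blvrb, a biliverdin reductase gene, averaged 1448 ± 235 at 100 nM and 710 ± 157 in the control (SD, n = 3 each; log2 fold change 1.04, limma adjusted p = 0.00164). hpx, the gene of the plasma protein hemopexin, had 64, 198 and 92 at 100 nM, against 5, 15 and 11 in the control (3.34 ± 0.51 SE, limma adjusted p = 0.00124). The size of that change depends on the pseudocount, since the control values are low: with a pseudocount of 10 it was 2.55. hmox2a, a haem oxygenase gene, rose by 0.59, a call lost without control replicate 2 (adjusted p = 0.0755), control replicate 3 (0.0946) or 100 nM replicate 1 (0.0975). hmox1a, the inducible haem oxygenase gene, picked after its value was seen, had 318, 368 and 414 at 100 nM, against 581, 850 and 371 in the control, and these overlapped (−0.64, limma adjusted p = 0.205).

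The globin genes encode the protein that takes up most erythroid haem. Summed over 10 gene IDs, globins ranged from 24653 to 44621 normalised counts at 100 nM, against 13512 to 22462 in the control. The adult gene ba1 (2 gene IDs) was at 0 to 2 in every library and hbaa1 at 0 to 4, while the embryonic and larval genes carried the sum. At 30 nM the sums were 19832 to 24448, and at 3 nM 18316 to 30087, which overlapped the range at 100 nM. Of 6 tested, 3 rose at 100 nM and 3 were not called, where 9.63% of all genes rose. The list's median log2 fold change was 1.0 at 100 nM, 0.57 at 30 nM and 0.83 at 3 nM, without a call at the lower concentrations. hbz had 1252, 914 and 892 at 100 nM, against 22, 14 and 30 in the control (5.52 ± 0.64 SE, limma adjusted p = 0.000257), and hbbe2 had 10977, 6708 and 10962 at 100 nM, against 2541, 1487 and 2996 in the control (2.05 ± 0.29 SE, limma adjusted p = 0.000872). hbae3 rose by 0.95 (limma adjusted p = 0.0202). With equal totals hbae3 was not called (0.059), nor was it when 100 nM replicate 3 (0.0611) or control replicate 1 (0.0502) or 2 (0.0532) was omitted. Globin genes have near-identical copies, so the split between them is uncertain.

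Of 19 tested genes of the erythrocyte membrane and its enzymes, 3 rose, 1 fell and 15 were not called, where 17.5% of all genes were called (9.63% higher, 7.9% lower), a share near that of the list, with a median of 0.09 (−0.09 with equal totals). kel, the gene of a blood group protein, had 70, 100 and 105 at 100 nM, against 24, 28 and 33 in the control (1.65 ± 0.25 SE, limma adjusted p = 0.00129). rhd (1.12), a Rhesus protein gene, and cahz (0.64), the erythrocyte carbonic anhydrase gene, rose too; rhd was not called without control replicate 3 (0.0661) or 100 nM replicate 3 (0.0649), nor cahz without 100 nM replicate 3 (0.0661) or with equal totals (0.115). Without 100 nM replicate 3 the list held 1 rise and 1 fall. The gene that fell, rhcga (−2.21), encodes an ammonia transporter known from skin ionocytes. The spectrin gene sptb, another anaemia gene, picked after its value was seen, had 931, 1653 and 1129 at 100 nM, against 857, 1685 and 1231 in the control (−0.01).

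Of 16 erythroid regulator genes tested, 2 rose and 1 fell, again near the 17.5% called among all genes, with a median of −0.10 (−0.29 with equal totals, which gave 1 higher and 3 lower). gata1a, the gene of the main erythroid transcription factor and a known activator of alas2, had 65, 79 and 93 at 100 nM, against 42, 31 and 31 in the control. These did not overlap, and the log2 fold change was 1.16 ± 0.21 SE (limma adjusted p = 0.00331). lmo2 (0.50), a partner of gata1a in blood formation, was not called with equal totals (0.243), nor when 100 nM replicate 1 (0.0838) or 3 (0.0938) or control replicate 1 (0.0756) or 3 (0.0795) was omitted. bcl11aa (−0.73), the gene of a factor known for repressing globin genes in mammals, lost it without 100 nM replicate 1 (0.0549). Without 100 nM replicate 1, the list held 1 rise and 0 falls.

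Among 19 tested genes of iron uptake and storage, 6 rose and 1 fell at 100 nM (9.63% and 7.9% of all genes), with a median of 0.34. The ferritin gene fth1a averaged 46312 ± 5109 at 100 nM and 23316 ± 786 in the control (SD, n = 3 each; log2 fold change 0.98, limma adjusted p = 0.000435), and this call was kept in all 12 omissions and with equal totals. tfr1b, the paralogue of tfr1a, had 2686, 2143 and 3358 at 100 nM, against 1777, 1810 and 1847 in the control (0.57, limma adjusted p = 0.022), but not without control replicate 3 (0.0626) or 100 nM replicate 1 (0.059) or 3 (0.0706), nor with equal totals (0.0948). hamp (−1.53), the gene of the iron hormone hepcidin, fell, a call lost without 100 nM replicate 3 (0.0534). The remaining rises named by rule were less stable over single omissions: hephl1b (1.08), a hephaestin-like ferroxidase gene, lost its call in 4 of them (control replicates 2 and 3, 100 nM replicates 1 and 3, up to 0.0914). fth1b (0.45), another ferritin gene, lost it in 8 (all but control replicate 2, 3 nM replicate 1, 30 nM replicate 2 and 100 nM replicate 2, up to 0.136). steap4 (1.11), a metalloreductase gene, lost it in 9 (all but control replicate 2, 30 nM replicate 1 and 100 nM replicate 1, up to 0.133), and the libraries of fth1b and of steap4 overlapped between the 2 groups. The number called in this list was 2 without control replicate 3 or without 100 nM replicate 3, and 4 without 3 nM replicate 2 or 3, 30 nM replicate 3 or 100 nM replicate 1. Equal totals left 1 higher and 1 lower. With only the 100 nM and control libraries in the fit, these genes named by rule from the lists were not called: slc25a38b (0.0534), clpxa (0.0966), hmox2a (0.13), hbae3 (0.106), rhd (0.0734), cahz (0.12), lmo2 (0.172), tfr1b (0.116), fth1b (0.173) and steap4 (0.144). Of the haem synthesis list, 4 genes were called in that fit: slc25a38a, clpxb, tspo and iscub. That left out hmbsa and the other gene ID of clpxa.

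Markers of other cells that could contribute to these levels moved in part. The counts called at 100 nM are set against 9.63% of all genes higher and 7.9% lower. The 8 hepatocyte markers summed to 180337 to 248574 normalised counts at 100 nM and 182247 to 205384 in the control, and 1 of them rose and 1 fell. These sums were mostly apoa2 and apobb.1. By contrast, fabp10a averaged 21528 ± 4381 at 100 nM and 8596 ± 1962 in the control (SD, n = 3 each). For ahsg1 the means were 15.3 ± 2.52 at 100 nM and 86.3 ± 22.7 in the control (SD, n = 3 each). At 30 nM, 2 of the 8 hepatocyte markers were called higher and 0 lower, where 0.379% of all genes were higher and 0.152% lower. Those of skeletal muscle (7 genes) summed to 1707822 to 2306111 at 100 nM and 1487179 to 1554301 in the control, with 0 called. Thrombocyte markers (6 genes) summed to 23316 to 26877 at 100 nM and 16812 to 20069 in the control, mostly fn1b and thbs1b, and 2 rose (gp9 and thbs1b). Values of itga2b were 11, 14 and 10 at 100 nM, against 12, 9 and 10 in the control. Those of mpl were 12, 13 and 16 at 100 nM, against 14, 12 and 11 in the control. The thrombocyte sums thus followed fn1b and thbs1b and give no level of thrombocytes. Blood progenitor markers (4 genes) summed to 618 to 759 at 100 nM and 816 to 902 in the control, with 1 of 3 tested lower. Of 6 genes listed as neutrophil markers, mmp13a, mmp9 and srgn rose, by 2.61, 1.90 and 0.94 (log2), and mpx (−0.54) and lyz (−0.51) were not called. Their sums, 8820 to 23609 at 100 nM and 13580 to 26281 in the control, were mostly cpa5, with 1616, 18861 and 9513 at 100 nM, against 11193, 23310 and 22376 in the control. These sums thus followed cpa5 and give no level of neutrophils. Whether cpa5 marks neutrophils in these larvae was not tested. For 6 macrophage markers, 3 rose and 1 fell, and the sums were 2086 to 2323 at 100 nM and 1709 to 2046 in the control. The fall was that of mpeg1.1, with 362, 287 and 356 at 100 nM, against 743, 419 and 576 in the control. csf1ra averaged 852 ± 41.4 at 100 nM and 794 ± 66.5 in the control (SD, n = 3 each). Since the macrophage markers moved in different directions, their sums give no level of macrophages. None of the markers in this paragraph was at 0 in any library. The part of these cells in the levels of the 10 genes was not tested.

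Genes whose values ran most closely with 3 of the members were found among 15760 genes with a mean of at least 100, by Pearson's r of log2 values over the 12 libraries. For alas1 these were nr1h3 (r = 0.98), the liver X receptor gene, soat1 (0.97), vegfab (0.97), pcdh12 (0.97) and pltp (0.97), a phospholipid transfer protein gene. Spearman's rho for the 5 was 0.91 to 0.95. Their r was 0.93 to 0.96 without the 2 libraries farthest from the median of alas1, 100 nM replicates 2 and 3. For alas2 they were zgc:66433 (0.94), st3gal5 (0.94), hbae3 (0.94), cahz (0.93) and ntm (0.92), with rho of 0.83 to 0.94, and without 100 nM replicate 3 and control replicate 1 their r was 0.70 to 0.91. The lowest of these were cahz (0.70) and hbae3 (0.78), and the highest was zgc:66433 (0.91). For slc4a1a they were CRISP3 (0.95), slc19a2 (0.92), dhrs7 (0.92), BX530097.1 (0.90) and eno1a (0.90), with rho of 0.83 to 0.93, or r of 0.85 to 0.97 without control replicate 1 and 30 nM replicate 1. The 3 sets share no gene, and each r is a description of libraries that also differ by group and scaling.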

How the data were processed

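The deposited per-sample files were used, whose values are, per the file headers, normalised counts; they are a score and not raw counts, since the authors scaled them and gave them as whole numbers. Tools listed in the submitters' processing notes, without role or order, are RSEM 1.2.28, DESeq2 1.10.1, CASAVA and STAR 2.5.1b, with GRCz10 as the build. Per the labels' protocols, libraries were stranded and made from poly(A) RNA. Low values gave a read scale for 4 of the 12 libraries, with estimated totals of 23823000 to 49669000 reads, and the others were not resolved, so no counting intervals are given. Libraries of a group correlated at r of 0.97 to 0.99 (log2), and none was treated as a duplicate.

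Genes reaching a value of 10 in 3 or more libraries entered limma 3.58.1 (R 4.3.3) on log2(value + 1), by a linear model of the 4 groups over all 12 libraries and eBayes with a variance trend. P-values were adjusted over 22404 genes by the Benjamini-Hochberg method. The fit was tested on simulated data whose libraries were independent, with the same dispersion for all genes. That test therefore does not cover libraries that deviate together by replicate number. Members, lists and comparisons were chosen with earlier results of these data known. All 10 members are named; from each list up to 6 genes with the lowest p among those called at 100 nM are named, and others are marked. Alternatives were other pseudocounts, filters, scalings, fits and omissions of a library.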

Additional observations from a re-analysis of the deposited data

How the results depend on the processing

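Of the 10 genes, 4 were called at 100 nM, and 3 to 5 when any 1 library was left out; alas1, alas2 and slc4a1a stayed called throughout those omissions. With only the 2 groups compared in the fit, 1 of the 10 was called (alas1, adjusted p = 0.0255; alas2 0.0739, slc4a1a 0.0598, ppox 0.191), as were 1172 of all genes at 100 nM, 15 at 30 nM, 0 at 3 nM and 1179 between 100 and 30 nM, and 4, 2 and 3 genes of the haem synthesis, membrane and iron lists; that fit has fewer libraries. ppox was also not called with a pseudocount of 10 (0.0503), no filter (0.0589), quantile normalization (0.0632) or no variance trend (0.0541). Between 100 and 30 nM the count of the 10 was 1, with 0 to 1 over the omissions, 0 with equal totals and 0 without a trend. Over the 4 groups it was 3, with 1 to 3 over the omissions, 1 with equal totals and 1 without a trend. Equal totals left 62 of all genes at 30 nM, 5 genes of the haem synthesis list and 2 of the iron list, which had 4 without a trend; without a trend 0 of all genes were called at 3 nM.

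Leaving out single libraries gave 2289 to 4621 of all genes at 100 nM (3926 in full), 28 to 267 at 30 nM (119), 0 to 33 at 3 nM (9), 1041 to 2492 between 100 and 30 nM (2069) and 1803 to 3344 over the 4 groups (2881). Among the 10 genes it gave 0 at 30 nM and 0 at 3 nM. The lists had 6 to 11 (haem synthesis), 2 to 3 (breakdown), 2 to 4 (globins), 2 to 4 (membrane), 1 to 4 (regulators) and 2 to 6 (iron).

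Same-numbered libraries of different groups deviated together at r over 0.1 in 13 of 18 pairs (−0.02 to 0.58), and 10 of the 12 libraries matched their own number best, which is a hint from the data and not the design. Differently numbered pairs ranged from −0.60 to 0.21, so some of them also passed 0.1. Pairs of replicate 3 ranged from −0.02 to 0.15. With the replicate number as a block, 6 of the 10 genes were called at 100 nM (uros and urod added), 1 at 30 nM (alas1, adjusted p = 0.0316), 1 at 3 nM (uros, 0.0458), 4 between 100 and 30 nM (alas2, alas1 at 0.0356, urod and slc4a1a) and 6 over the 4 groups. That block gave 7678, 778, 1234, 4540 and 7570 of all genes in the same order, and 18, 6, 7, 7 and 11 genes of the haem synthesis, globin, membrane, regulator and iron lists.

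Among the 10 genes, signs turned only for values not called. With equal totals these were cpox (−0.0152) and fech (−0.148) at 100 nM, urod (−0.00397) at 30 nM, alas1 (−0.0835) and alad (−0.0105) at 3 nM and uros (−0.0797) between 100 and 30 nM, and with quantile normalization alas1 (−0.0757) and ppox (0.0140) at 3 nM. Over the omissions the sign also turned for fech at 100 nM (−0.0590 to 0.107), for slc4a1a (−0.200 to 0.390), tfr1a (−0.294 to 0.182) and urod (−0.0709 to 0.170) at 30 nM, for alas1 (−0.0777 to 0.167), cpox (−0.212 to 0.0106), ppox (−0.231 to 0.214) and tfr1a (−0.276 to 0.0985) at 3 nM, and for uros between 100 and 30 nM (−0.0920 to 0.171).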
